A study of Saccharomyces cerevisiae with 24 samples.

Results

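The budding yeast Saccharomyces cerevisiae mutant hsh49::Q24P was compared with wild type (WT) during exponential growth (log phase). The comparison rests on 6 of the 24 RNA sequencing libraries of the study, chosen by their labelled genotype and growth phase: 3 biological replicates of hsh49::Q24P (strain JPY2863) and 3 of WT (strain JPY10H3). Libraries of nam8D (JPY28H5) and mud1D (JPY28A8), deletions of NAM8 and MUD1, in log phase, 3 of each, and libraries of hsh49::Q24P and WT that were starved, at 48 h of culture, also 3 of each, were set beside it. All strains are of the BY background, each genotype is a single strain, and all cultures grew in synthetic medium with 2% glucose, histidine, leucine, uracil and lysine. Poly(A) RNA was isolated from 1 µg of total RNA for a directional library kit, and the titles of all 24 libraries carry the same batch label. The question is which RNAs differ in abundance when Hsh49 carries the substitution Q24P and the cells are not starved.

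Hsh49 is a subunit of SF3b, a protein complex of the U2 snRNP. The U2 snRNP pairs with the branch site of an intron, the place whose adenosine attacks the start of the intron in the opening chemical step of splicing, and SF3b holds that pairing in place. In budding yeast nearly every branch site reads UACUAAC or a close variant, few genes have an intron, and many of those that do encode ribosomal proteins. The U1 snRNP, to which Nam8 and Mud1 belong, recognises the start of the intron.

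Abundance is given in TPM, a transcript abundance per length scaled to a fixed total per library, as deposited, with mean ± SD over 3 libraries. Differences are hsh49::Q24P minus WT on the log2(TPM + 1) scale with their standard error (SE), a scale that understates the change of genes with few TPM. TPM are shares of a library taken from a whole culture, so fewer cells with an RNA and less of it per cell cannot be told apart. They were computed per gene, so spliced and unspliced RNA cannot be told apart either. The TPM of the 6 libraries summed to between 999861 and 999873 and keep no record of sequencing depth, which is unknown. Across genes, hsh49::Q24P libraries correlated with WT libraries with r between 0.9906 and 0.995, and replicates within a group with r between 0.9925 and 0.9954.

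HSH49 (YOR319W) itself was present in both genotypes, at 45.2, 44.0 and 47.4 TPM in hsh49::Q24P and 42.0, 36.1 and 38.3 TPM in WT. The groups did not overlap, as for 10.1% of all genes tested with hsh49::Q24P the higher, but the difference of 0.23 ± 0.0887 did not pass the test (limma adjusted p = 0.655). A gene level cannot show a point mutation, so HSH49 does not check the label. Both genotypes carried RNA of mating type a: its pheromone gene MFA1 averaged 2227 ± 209 TPM in hsh49::Q24P and 2062 ± 129 TPM in WT, and MF(ALPHA)1, the pheromone gene of the other mating type, 0.911 ± 0.236 TPM in hsh49::Q24P and 0.85 ± 0.131 TPM in WT. None of the 7 genes of the mating type a list and none of the 4 tested genes of the alpha list passed. Neither list holds AFB1, a barrier to the a-factor pheromone, which rose and is described further on.

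Few RNAs separated the mutant from WT. Of 6449 genes tested, 30 (0.465%) passed at an adjusted p under 0.05 in limma's moderated test, of which 13 rose (0.202%) and 17 fell (0.264%). Only 7 of the 30 (0.109% of genes tested) differed by at least 1 on the log2 scale: SAS5, FIT2, IMT4 and YPR170W-A rose, and LEU2, SUP53 and URA3 fell. At an unadjusted p under 0.05 there were 358 genes (5.55%), 209 higher (3.24%) and 149 lower (2.31%). The median gene stood at 0.03.

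The genes that fell were mostly genes with an intron. An intron interrupts the coding sequence of 262 of the 6449 genes tested (4.06%), and of 11 of the 17 genes that fell (64.7%): RPS22B, SRB2, RPL18B, ERV1, EFM5, PFY1, RPL2A, RPO26, SAR1, PRE3 and SNC1. Outside LEU2, URA3 and SUP53, which are described further on, the count was 11 of 14 (78.6%). Among the 13 genes that rose, HFM1 alone has an intron. The same lean was present below the threshold, where 57 of the 149 genes at a lower level with an unadjusted p under 0.05 have an intron (38.3%), against 2 of the 209 at a higher level (0.957%). The count of 11 became 5 without hsh49::Q24P replicate 2, 6 without hsh49::Q24P replicate 3, and 7, 5 and 5 without WT replicate 1, 2 or 3, and 28 in a fit of the 12 log phase libraries alone. It became 0 when libraries were scaled to their spike-in RNAs, which moved the median gene to 0.40; no label speaks of spike-in RNAs, and how much was added is unknown. The spike-in RNAs summed to 9596, 8718 and 8033 TPM in hsh49::Q24P and 10069, 12571 and 12040 TPM in WT.

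The introns of the 5 genes that passed whichever of the 6 libraries was left out show what the U2 snRNP meets in these RNAs. Each line gives the end of the intron, from 20 bases before the branch site motif to the last base, 5′ to 3′ on the strand of the gene, from the RefSeq sequence of yeast assembly R64. Capitals mark TACTAAC, the DNA form of the branch site consensus, or the heptamer closest to it that keeps the branch point adenosine. The intron of HFM1, which rose, stands last for comparison.
RPS22B: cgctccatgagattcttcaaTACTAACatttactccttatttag
SRB2: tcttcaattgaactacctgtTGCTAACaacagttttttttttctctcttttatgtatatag
ERV1: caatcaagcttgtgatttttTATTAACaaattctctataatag
PFY1: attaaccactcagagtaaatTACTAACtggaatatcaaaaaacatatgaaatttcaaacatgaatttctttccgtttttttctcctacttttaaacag
SAR1: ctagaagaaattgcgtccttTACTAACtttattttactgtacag
HFM1: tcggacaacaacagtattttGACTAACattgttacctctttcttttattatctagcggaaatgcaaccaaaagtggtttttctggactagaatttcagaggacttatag

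RPS22B, PFY1 and SAR1 hold the consensus exactly, and SRB2, ERV1 and HFM1 each differ from it at 1 base. Over the 11 genes that fell there are 12 introns, since EFM5 has 2, and 10 of the 12 (83.3%) hold TACTAAC exactly. Among the 260 introns of the other 251 tested genes with an intron the share was 82.7%, and among all 281 introns 82.6%. The first 6 bases were GTATGT, the usual start of a yeast intron, in 10 of the 12 (83.3%) and in 73.8% of the other 260; HFM1 starts with GTAGTA. The 12 introns measured 62 to 483 bases with a median of 114.5, and the others 49 to 1002 bases with a median of 134. The search covered the strand of the gene only, and a heptamer found this way is a match of letters, not a mapped branch site.

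RPS22B (YLR367W), which encodes a protein of the small ribosomal subunit, fell furthest among genes with an intron. It stood at 244, 199 and 202 TPM in hsh49::Q24P and 441, 405.5 and 382 TPM in WT. The groups were far apart, and hsh49::Q24P replicate 1 was the highest of its 3. The difference was -0.93 ± 0.141 (95% confidence interval -1.23 to -0.63, limma adjusted p = 0.00113).

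SRB2 (YHR041C), a subunit of the Mediator complex that links activators to RNA polymerase II, stood at 44.1, 47.3 and 43.6 TPM in hsh49::Q24P and 66.0, 72.7 and 67.3 TPM in WT. Every hsh49::Q24P library lay below every WT library, with a difference of -0.60 ± 0.0763 (limma adjusted p = 0.000176). The other 24 Mediator genes tested did not pass and lay between -0.15 and 0.16.

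PFY1 (YOR122C), profilin, which binds actin monomers, had the lowest adjusted p of the 11. It stood at 542, 540.5 and 517 TPM in hsh49::Q24P and 740, 751 and 742 TPM in WT. No library of either group came near the other, and the difference was -0.48 ± 0.0548 (limma adjusted p = 4.63e-05). ERV1 (YGR029W), a sulfhydryl oxidase of the mitochondrial intermembrane space, stood at 80.7, 75.1 and 71.8 TPM in hsh49::Q24P and 114, 110 and 106 TPM in WT. The groups were clear of each other here too (-0.53 ± 0.0783, limma adjusted p = 0.000939). SAR1 (YPL218W), the GTPase that starts the COPII coat on vesicles leaving the endoplasmic reticulum, stood at 382, 355 and 379 TPM in hsh49::Q24P and 478, 474 and 478 TPM in WT. Its difference was -0.36 ± 0.0542 (limma adjusted p = 0.00111), but 0.03 with spike-in scaling.

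The other 6 fell by smaller margins or rested on more of the libraries. PRE3, a catalytic subunit of the proteasome, averaged 267.5 ± 3.93 TPM in hsh49::Q24P and 337 ± 5.66 TPM in WT (-0.33 ± 0.0598, limma adjusted p = 0.00814). RPL18B, a protein of the large ribosomal subunit, averaged 189 ± 14.4 TPM in hsh49::Q24P and 279 ± 12.8 TPM in WT (-0.56 ± 0.109). EFM5, which methylates a translation elongation factor, averaged 119 ± 8.76 TPM in hsh49::Q24P and 167 ± 3.18 TPM in WT (-0.49 ± 0.0959). RPL2A, RPO26 (a subunit shared by RNA polymerases I, II and III) and SNC1 (a SNARE of secretory vesicles) stood at -0.42 ± 0.0937, -0.40 ± 0.086 and -0.26 ± 0.0563. The groups did not overlap for any of these 6. The genes were chosen by a test on the same libraries, which makes such a separation likely, so it adds no support. Over all genes tested, 367 (5.69%) lay lower without overlap. The calls of RPL2A and SNC1 (limma adjusted p = 0.0473 for both) were lost without any 1 of the 6 libraries, those of EFM5 and RPO26 without any except hsh49::Q24P replicate 1, that of RPL18B without replicate 2 or 3 of either group, and that of PRE3 without hsh49::Q24P replicate 2 or WT replicate 2 or 3. With spike-in scaling PRE3 and SNC1 stood at 0.06 and 0.14.

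**Figure D1:**
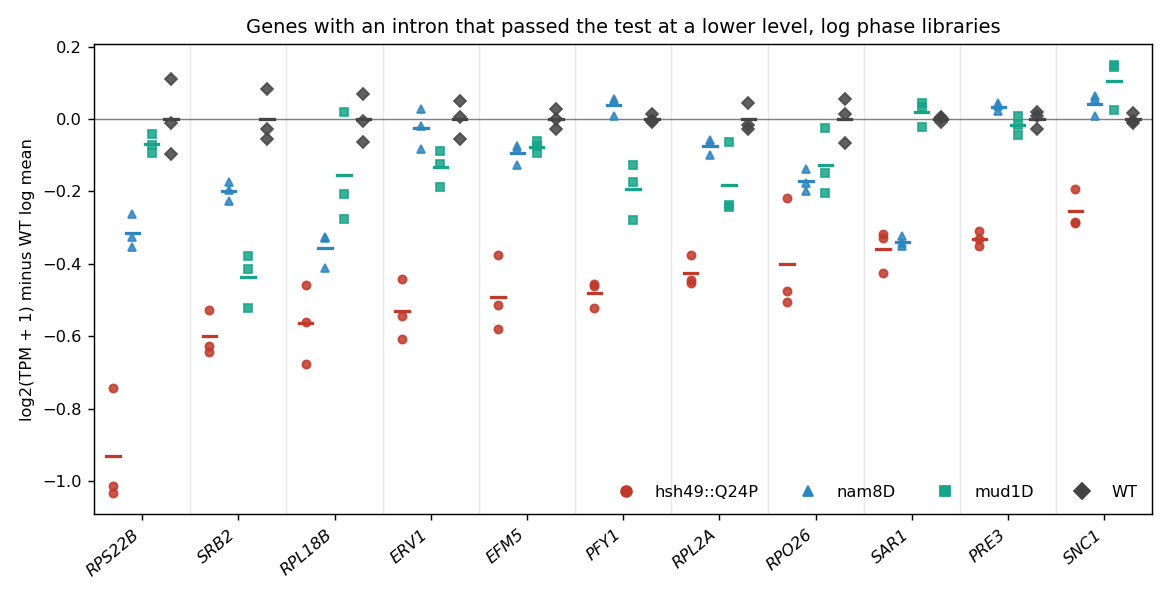
Level of the 11 genes with an intron that passed at a lower level, in each log phase library, as log2(TPM + 1) minus the WT mean. Points are libraries (hsh49::Q24P, nam8D, mud1D and WT from left to right within a gene) and short lines are means of 3. The hsh49::Q24P points lie below all WT points of the same gene, from -0.93 on average for RPS22B to -0.26 for SNC1; with spike-in scaling none of the 11 passed and SAR1, PRE3 and SNC1 turned to 0.03, 0.06 and 0.14.

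Ribosomal protein genes often exist as near-identical pairs, and the deposited values do not show how reads that match both copies were assigned. The values of the 3 that fell are uncertain to that extent. RPS22B and RPL2A are each the less abundant copy of their pair. The coding sequence of RPS22B is 89.6% identical to that of RPS22A, and RPS22A stood at 0.11 ± 0.167 and did not pass. Summed over the pair, the level was 2162, 1959 and 1924 TPM in hsh49::Q24P and 2152, 2030 and 2034 TPM in WT, so the sums overlapped. RPL2B, 96.3% identical to RPL2A, stood at -0.18 ± 0.12 without passing, and this pair summed to 4659, 4450 and 4443 TPM in hsh49::Q24P and 5309, 5592 and 5311 TPM in WT, with no overlap. SNR44, a small nucleolar RNA encoded within RPS22B, averaged 26.0 ± 3.82 TPM in hsh49::Q24P and 29.0 ± 5.04 TPM in WT (-0.15 ± 0.388, not passed).

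Genes with an intron were also lower as a class, by a small amount. The 173 tested outside the ribosome had a median difference of -0.07, beside 0.03 for the 6187 genes without an intron; with spike-in scaling it was 0.30, which is -0.10 relative to the median gene, as it was without that scaling. Of the 173, 8 fell and HFM1 rose, beside 0.264% lower and 0.202% higher among all genes tested. At an unadjusted p under 0.05, 48 were lower (27.7%, against 1.49% of genes without an intron). Below 0 lay 122 (70.5%, against 37.3% of genes without an intron and 38.8% of all genes tested). The median level of these genes, relative to WT, was -0.06, -0.09 and -0.09 in the 3 hsh49::Q24P libraries and 0.01, -0.01 and 0.00 in the WT libraries, so the groups were separate. In nam8D it was 0.01, 0.01 and -0.01, and in mud1D 0.03, 0.01 and -0.01.

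The 89 ribosomal protein genes with an intron were less clearly apart. Their median difference was -0.08 (0.31 with spike-in scaling). Of the 89, 3 fell and none rose, beside 0.264% lower and 0.202% higher among all genes tested. At an unadjusted p under 0.05, 9 (10.1%) were lower and 1 (1.12%) higher, against 2.31% and 3.24% of all genes tested. Their median level was 0.00, -0.10 and -0.14 in hsh49::Q24P libraries and 0.03, 0.01 and -0.04 in WT libraries, which overlap. In nam8D it lay between -0.097 and -0.095, within the range of the hsh49::Q24P libraries. Of the 89 genes with an intron, 24 (27.0%) lay lower without overlap, against 5.69% of all genes tested. RPS9A went the other way, the highest of the 89 at 0.69 ± 0.166 (limma adjusted p = 0.0888). It stood at 349, 266 and 299 TPM in hsh49::Q24P and 177, 192 and 191 TPM in WT. In the fit of the 12 log phase libraries alone RPS9A passed at a higher level (limma adjusted p = 0.0289). The 49 ribosomal protein genes without an intron had a median difference of -0.01 and none passed. Among them 9 (18.4%) lay lower without overlap, and 3 (6.12%, against 2.31% of all genes tested) were lower at an unadjusted p under 0.05. The 3 were RPS26B (-0.59), RPL9B (-0.49) and RPL8A (-0.47), as far below WT as several of the 11 intron genes, and all 3 passed in the fit of the 12 log phase libraries alone (limma adjusted p = 0.000463, 0.000423 and 0.00121).

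**Figure D2:**
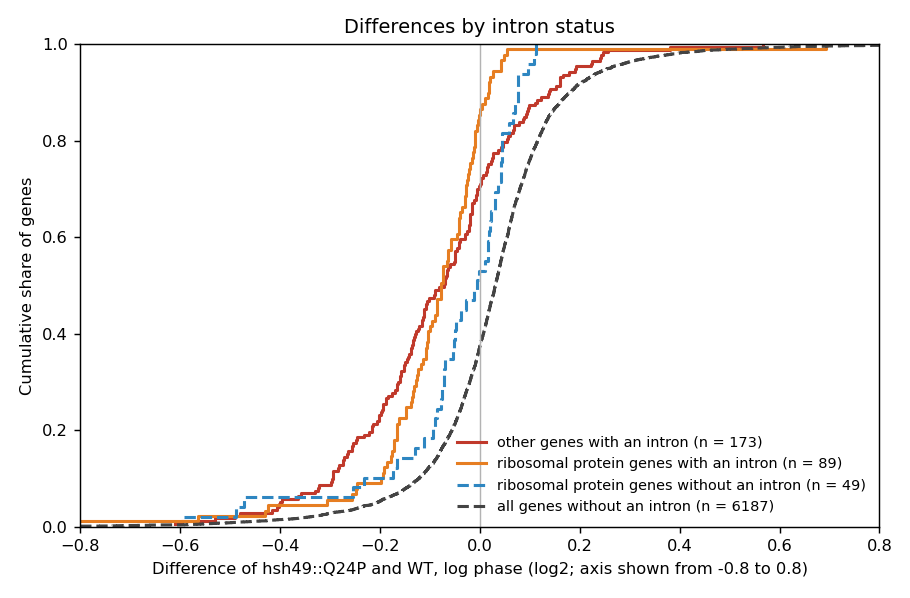
Cumulative share of genes (vertical axis) at or below a given difference of hsh49::Q24P and WT in log phase (horizontal axis, log2), by class. The curves of genes with an intron lie left of the curve of genes without an intron over most of the range, with medians of -0.07 outside the ribosome and -0.08 in ribosomal protein genes against 0.03; spike-in scaling turns both to 0.30 and 0.31 beside a median gene at 0.40.

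By intron features, given as a description without a test, the shorter introns and those without the exact consensus stood lower. Among the 165 genes outside the ribosome with a single intron, the 137 with an intron under 200 bases had a median of -0.10 and 29.9% were lower at an unadjusted p under 0.05. The 28 with a longer intron had a median of -0.01 and a share of 14.3%. The 38 without an exact TACTAAC had a median of -0.14 and a share of 34.2%, against -0.06 and 25.2% for the 127 with it. The 121 that start with GTATGT had a median of -0.08 and a share of 30.6%, against -0.07 and 18.2% for the 44 with another start. Of the 10 genes with more than 1 intron, EFM5 passed, and SUS1 (-0.29), TAD3 (-0.20) and VMA9 (-0.19) came next without passing.

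No gene of the splicing machinery passed. Of 93 genes of the spliceosome and its recycling, all tested with limma, 4 were higher and none lower at an unadjusted p under 0.05. Over all genes tested the shares were 3.24% higher and 2.31% lower. The 93 genes ranged from -0.20 to 0.32. Within SF3b, HSH155 stood at -0.02, CUS1 at -0.01, RSE1 at 0.00 and RDS3 at 0.22. SMX2, a protein of the Sm ring, was the highest of the 93 at 0.32 ± 0.0849 (limma adjusted p = 0.173). The 6 that themselves have an intron, among them LSM2, SMD2 and YSF3, lay between 0.00 and 0.18.

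In some other processes, described here for that reason, the lowest members were genes with an intron. Elsewhere the lowest member had none, as with DYN3 (-0.525, not passed) in the tubulin and spindle list. The same held for CYC1 (-0.82) in the respiratory list and SER3 (-0.51) in amino acid synthesis. In the actin list of 39 genes PFY1 fell, and COF1 (cofilin, -0.26) and ARP2 (of the Arp2/3 complex, -0.25) came next without passing; all 3 have an intron. ACT1 and SAC6, the other 2 members with an intron, stood at 0.01 and -0.02. Among 16 ubiquitin-conjugating enzymes and ubiquitin-like proteins none passed, and the 3 lower at an unadjusted p under 0.05 (18.8%, against 2.31% of all genes) were UBC9 (-0.42), RUB1 (-0.30) and MMS2 (-0.20), all with an intron. In that list 8 of the 16 have an intron, and 2 of these, UBC13 (-0.01) and UBC4 (0.06), lay near 0. In the proteasome list of 34 genes PRE3 fell and the other 33 lay between -0.12 and 0.07. The intron genes next in line behind the 11 were YDL012C, IWR1, UBC9 and CIN2, each at a limma adjusted p of 0.0934, with CIN2, a factor of tubulin folding, at -0.61 ± 0.149. ARP2 and these 4 were named for their values.

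Of the 6 genes without an intron that fell, LEU2 and URA3 are markers of strain construction, and SUP53 and NFS1 lie next to LEU2. LEU2 (YCL018W), an enzyme of leucine synthesis, stood at 465.5, 118 and 63.0 TPM in hsh49::Q24P and 4513, 5154 and 5907 TPM in WT (-5.08 ± 0.572, limma adjusted p = 4.63e-05). SUP53, a leucine tRNA gene next to LEU2, stood at 20.8, 2.69 and 3.02 TPM in hsh49::Q24P and 245, 262 and 275 TPM in WT (-5.25 ± 0.46). URA3 (YEL021W), an enzyme of uracil synthesis, stood at 0.459, 0.075 and 0.0391 TPM in hsh49::Q24P and 5.42, 3.68 and 5.77 TPM in WT (-2.32 ± 0.145). The 3 genes were low in every hsh49::Q24P library and highest in replicate 1, where they held 8.97%, 7.96% and 9.25% of the WT mean for LEU2, SUP53 and URA3. In replicate 2 they held 2.26%, 1.03% and 1.51% of it, and in replicate 3 1.21%, 1.16% and 0.788%. In starved hsh49::Q24P cells LEU2 was at 0.848, 0.828 and 1.10 TPM, and SUP53 and URA3 were listed at 0 in all 3 libraries.

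LEU2, SUP53 and URA3 were low in nam8D and mud1D as well, so marker status and the mutations cannot be told apart in a comparison with WT. No other gene of leucine and branched-chain synthesis passed among the 13 tested beside LEU2, nor any of the 13 tested beside URA3 in uracil synthesis and uptake. Without hsh49::Q24P replicate 1, 10 genes with an intron were among 16 that passed lower; without replicates 1 and 2 together, 3 were among 7. The part of these markers in the other differences was not tested.

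**Figure D3:**
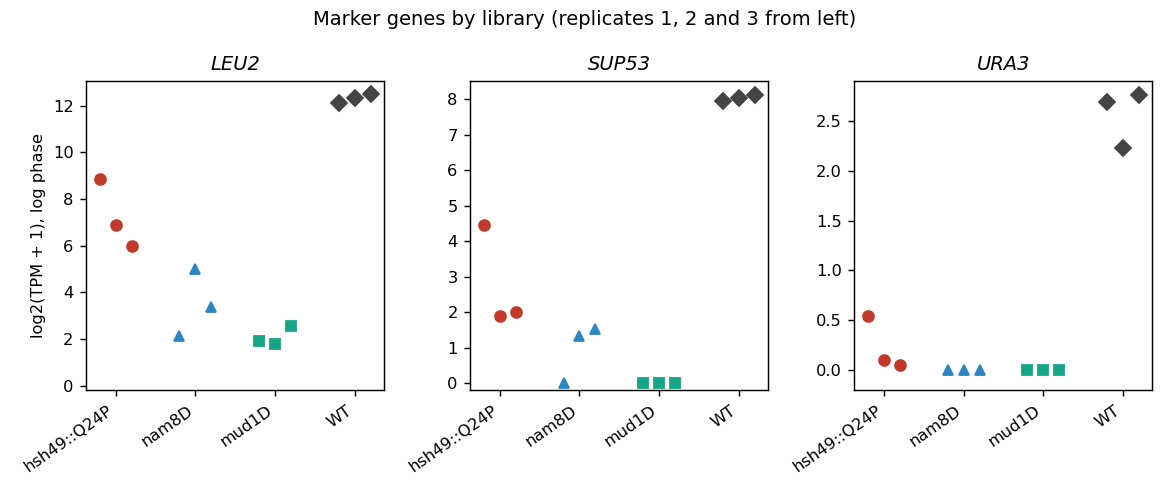
LEU2, SUP53 and URA3 in each log phase library as log2(TPM + 1), replicates 1, 2 and 3 from left to right. All hsh49::Q24P points lie below all WT points, with replicate 1 the highest of the 3 in each panel, and nam8D and mud1D are low throughout.

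The other genes without an intron that fell were CYC1, SER3 and NFS1. CYC1, the main cytochrome c, stood at 40.3, 33.9 and 35.4 TPM in hsh49::Q24P and 65.4, 63.7 and 66.1 TPM in WT (-0.82 ± 0.0986, limma adjusted p = 8.76e-05). It differed by a similar amount in the other mutants, at -0.72 in nam8D and -0.83 in mud1D against the same WT libraries, and it was the single gene to pass among 49 of the citric acid cycle and respiratory chain. SER3, of serine synthesis, averaged 142 ± 13.2 TPM in hsh49::Q24P and 202.5 ± 24 TPM in WT (-0.51 ± 0.105), a call lost without replicate 2 or 3 of either group. NFS1, the cysteine desulfurase that feeds iron-sulfur cluster assembly, lies next to LEU2 and stood at -0.23 ± 0.0475. It was at -0.24 in nam8D and -0.19 in mud1D, turned to 0.16 with spike-in scaling, and of the 6 leave-outs of 1 library it passed only without hsh49::Q24P replicate 3.

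SAS5 (YOR213C) rose furthest. It encodes a subunit of the SAS complex, a histone acetyltransferase that acts near silenced chromatin. It stood at 168, 167 and 186 TPM in hsh49::Q24P and 43.8, 44.3 and 43.6 TPM in WT. The difference of 1.96 ± 0.0688, or 3.89-fold on this scale, passed at a limma adjusted p of 1.73e-13 and remained past the threshold without any 1 of the 6 libraries. Its partners in the complex, SAS2 at -0.03 and SAS4 at -0.05, did not pass, nor did the other 15 tested genes of the silencing list. Nor did its neighbours on the chromosome, STE4 at 0.06 ± 0.097 and SPR2 at 0.37 ± 0.181. SAS5 stood at 45.9, 41.2 and 44.6 TPM in nam8D and 45.4, 45.3 and 48.3 TPM in mud1D, and hsh49::Q24P was higher than nam8D by 1.96 ± 0.0688 and than mud1D by 1.88 ± 0.0688 (limma adjusted p = 8.47e-14 and 3.64e-13).

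FIT2, a cell wall mannoprotein that retains iron siderophores, stood at 85.3, 73.5 and 61.8 TPM in hsh49::Q24P and 35.8, 13.6 and 13.2 TPM in WT. WT replicate 1 lay far above the other 2, so the difference of 1.91 ± 0.415 has a wide interval (95% confidence interval 1.04 to 2.78, limma adjusted p = 0.0458). The call was kept only when WT replicate 1 was the library left out. Of 37 genes of the iron regulon, which is induced when iron is short, FIT2 was the single gene to pass. The list had a median of 0.15, with 9 members higher (24.3%, against 3.24% of all genes) and 1 lower (2.7%, against 2.31%) at an unadjusted p under 0.05. Its median level was 0.07, 0.18 and 0.28 in hsh49::Q24P libraries and 0.15, -0.11 and -0.06 in WT libraries, relative to the WT mean, so the groups overlapped. ARN2, a siderophore transporter, stood at 1.22 and FIT3 at 0.83, with ARN2 at 89.0, 115.5 and 146 TPM in hsh49::Q24P and 112, 31.1 and 32.6 TPM in WT, where again WT replicate 1 was the high one.

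Most of the other genes that rose were at low levels. IMT4, an initiator methionine tRNA gene, was at 3.23, 1.72 and 1.34 TPM in hsh49::Q24P and listed at 0 in all 3 WT libraries, so no fold is given. YPR170W-A was at 8.57, 5.21 and 6.20 TPM in hsh49::Q24P and 1.88, 1.48 and 1.75 TPM in WT (1.48 ± 0.199). BAP2, a permease for branched-chain amino acids, and APT1 were among those at higher levels. BAP2 stood at 103, 146 and 131 TPM in hsh49::Q24P and 67.8, 56.3 and 66.9 TPM in WT (0.97 ± 0.153, limma adjusted p = 0.00168). It differed from WT by 0.98 in nam8D and by 0.63 in mud1D, with the same WT libraries.

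HOP1 (a chromosome axis protein), NDJ1 (a telomere protein) and HFM1 (a DNA helicase of crossing over) act in meiosis, and rose at low levels. All of these calls were lost when 0.1 rather than 1 was added to TPM (limma adjusted p = 0.0693, 0.73 and 0.263). HOP1 was also lost in the fits of the 6 and of the 12 log phase libraries alone. NDJ1 was also lost in the fit of the 6 and with median centring. HOP1 averaged 2.21 ± 0.289 TPM in hsh49::Q24P and 0.954 ± 0.185 TPM in WT, NDJ1 7.11 ± 1.15 TPM in hsh49::Q24P and 4.39 ± 0.269 TPM in WT. HFM1, whose intron starts with GTAGTA, stood at 6.51, 6.11 and 5.97 TPM in hsh49::Q24P and 3.62, 3.96 and 3.99 TPM in WT (0.57 ± 0.102, limma adjusted p = 0.00814). Of 46 meiosis and sporulation genes tested, a list that does not hold NDJ1, HOP1 and HFM1 rose and none fell. Over all genes tested the shares were 0.202% higher and 0.264% lower. REC107 and SPO22, meiotic genes with an intron, stood at -0.19 and 0.19 and did not pass.

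AQY2 and its neighbour YLL053C, together an interrupted aquaporin gene, rose by 0.60 ± 0.131 and 0.69 ± 0.103. AFB1, a barrier to the a-factor pheromone, rose by 0.67 ± 0.0892 and TIR2, a cell wall mannoprotein, by 0.54 ± 0.0983. APT1, an adenine phosphoribosyltransferase, stood at 219.5, 199.5 and 191 TPM in hsh49::Q24P and 157, 163 and 168 TPM in WT (0.32 ± 0.0664). The calls of SAS5, IMT4, YPR170W-A, BAP2, YLL053C and AFB1 were kept without any 1 library. The call of AQY2 was lost without any 1 of the 6; those of APT1 and NDJ1 were kept only without hsh49::Q24P replicate 3 and replicate 2, and that of HOP1 only without hsh49::Q24P replicate 1 or WT replicate 3. TIR2 was lost without hsh49::Q24P replicate 3 or WT replicate 1, and HFM1 without replicate 1 of either group.

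**Figure D4:**
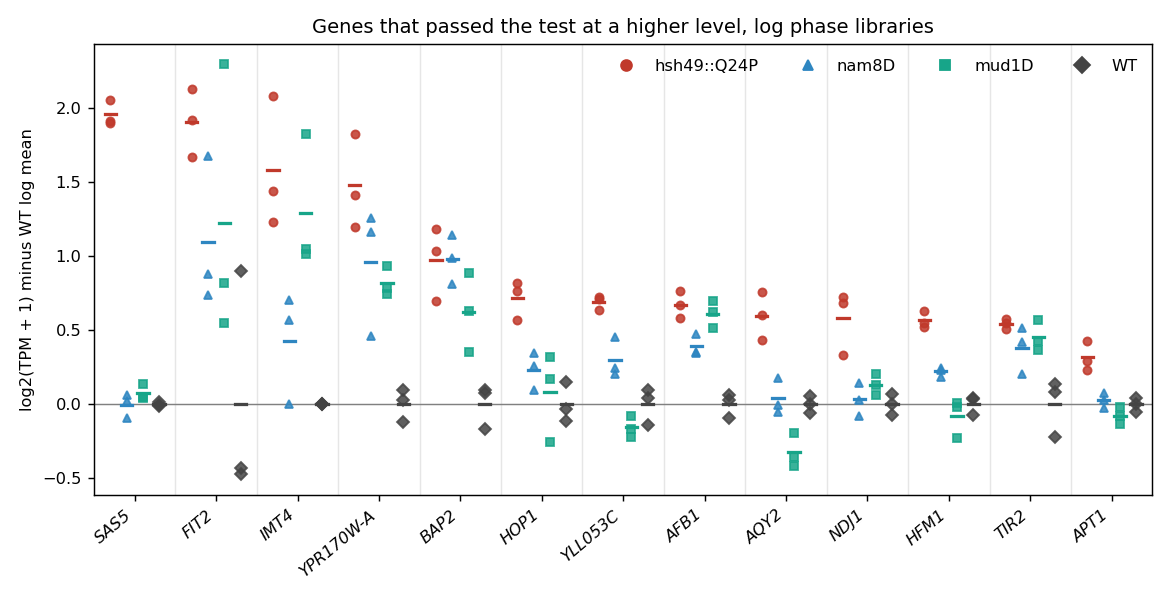
Level of the 13 genes that passed at a higher level, in each log phase library, as log2(TPM + 1) minus the WT mean. Points are libraries (hsh49::Q24P, nam8D, mud1D and WT from left to right within a gene) and short lines are means of 3. SAS5 is high in hsh49::Q24P alone among the 4 genotypes, at 1.96, while for BAP2 the nam8D points cover those of hsh49::Q24P.

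Broad programmes gave few or no calls. The stress response list of 30 genes had a median of 0.21 with none passing, and its level in hsh49::Q24P libraries, at -0.12, 0.46 and 0.24, overlapped that in WT, at 0.05, -0.09 and 0.05. The 16 genes of the hexose transport list, which holds sensors and regulators beside the transporters, had a median of 0.19 and the 23 methionine and sulfur genes -0.16, again with none passing. None passed among 94 ribosome biogenesis genes (median 0.05), 30 heat shock genes (0.03), 20 glycolysis genes (0.07) or 37 genes of RNA decay (0.06).

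The other splicing mutants differed from hsh49::Q24P at several of the same genes. These comparisons reuse the hsh49::Q24P libraries by which the genes were chosen, so they are not independent of that choice. The shares over all genes given beside them carry no such choice. Against nam8D, where 0.171% of genes passed at a lower level, 5 of the 11 intron genes were lower in hsh49::Q24P: SRB2, ERV1, PFY1, PRE3 and SNC1. Against mud1D, where 0.481% did, 7 were: RPS22B, ERV1, EFM5, PFY1, SAR1, PRE3 and SNC1. ERV1, PFY1, PRE3 and SNC1 are in both sets, with PFY1 at -0.52 ± 0.0548 against nam8D and -0.29 ± 0.0548 against mud1D (limma adjusted p = 1.39e-05 and 0.00819). Set against the same WT libraries, nam8D was lower for SAR1 (-0.34; 0.14% of genes passed lower) and mud1D for SRB2 (-0.44; 0.372%), and the other 9 did not pass in either. SAR1 in hsh49::Q24P and nam8D differed by -0.02 ± 0.0542. Of the 13 genes that rose, SAS5 and IMT4 were also higher than in nam8D (0.093% of genes passed higher) and 6 than in mud1D (0.481%).

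Starvation gives the same genotypes in libraries that the log phase comparison did not use, under a far wider difference between them: 60.3% of genes passed there, 35.1% at a lower and 25.1% at a higher level. Of the 11 intron genes, 8 were lower in starved hsh49::Q24P than in starved WT (SRB2, RPL18B, ERV1, EFM5, PFY1, RPL2A, RPO26 and PRE3). As a class, the 173 intron genes outside the ribosome were not lower in starvation. Their median was -0.05, beside -0.09 for genes without an intron. Ribosomal protein genes with an intron had a median of -0.11 there, and those without an intron -0.22. PFY1 was at -0.46 ± 0.0548 in starvation and -0.48 ± 0.0548 in log phase, and SRB2 at -0.75 ± 0.0763 and -0.60 ± 0.0763. RPS22B went the other way, at 215, 201 and 172 TPM in starved hsh49::Q24P and 80.3, 87.3 and 99.8 TPM in starved WT, a rise of 1.13 ± 0.141. SAR1 and SNC1 did not pass, at 0.04 and -0.08. The difference itself differed between growth states for RPS22B, RPO26, SAR1 and PRE3, where 46.0% of all genes passed that test. It subtracts the log phase difference by which these genes were chosen, so it is not independent of that choice.

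SAS5 was at 528.5, 464 and 465 TPM in starved hsh49::Q24P and 94.8, 96.9 and 112 TPM in starved WT, a rise of 2.25 ± 0.0688 that exceeded that of log phase by 0.29 ± 0.0974 (limma adjusted p = 0.0193). BAP2, TIR2, FIT2 and YPR170W-A were higher in both states. HOP1, AFB1, HFM1 and APT1, which rose in log phase, were lower in starved hsh49::Q24P, at -0.75, -0.49, -0.49 and -0.42. CYC1, lower in log phase, was higher in starvation by 0.57 ± 0.0986.

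**Figure D5:**
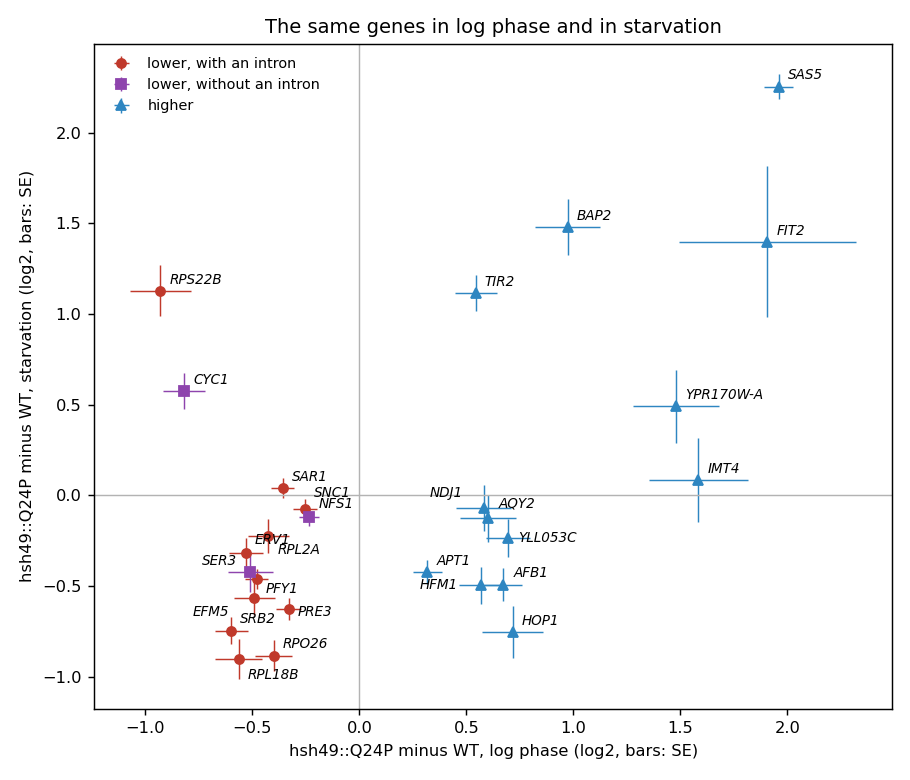
Difference of hsh49::Q24P and WT in log phase (horizontal axis, log2) and in starvation (vertical axis, log2) for the genes that passed in log phase, with bars of 1 SE; LEU2, SUP53 and URA3 lie far outside the axes and are not drawn. SAS5 stands at 1.96 and 2.25, most intron genes lie low on both axes, and RPS22B and CYC1 lie low in log phase and high in starvation.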

How the data were processed

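The authors' deposited table gives TPM per gene for all 24 libraries; per the submitters' processing notes, FastQC 0.11.9, Trimmomatic 0.39 and STAR 2.7.9a were used. The counting annotation, build, strand setting and assignment of ambiguous reads are not given in the sources used here, so no coordinates are printed. TPM hold no depth, so no counting interval is given. Of 8009 lines, 7121 name a gene, and tests leave out the 92 spike-in RNAs and other features. A gene with at least 1 TPM in at least 3 libraries was tested, 6449 in all.

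Values were analysed as log2(TPM + 1) in limma 3.58.1 (R 4.3.3), with a mean for each of 8 groups over 24 libraries, an intensity trend, 16 residual degrees of freedom and Benjamini-Hochberg adjustment over all genes tested within each comparison. The steps were tested on simulated data. Introns are gaps of at least 20 bases between coding parts in RefSeq assembly R64, matched by identifier for 6050 genes, so introns outside coding sequence are not counted. Tables were made in Python 3.11.15 with pandas 2.3.3. Named are every gene that passed, HSH49, U2 snRNP proteins, markers and the extremes of each list; others were named for their values. Members, lists and tests were chosen with earlier results of these data known. Alternatives changed the pseudocount, filter, scaling, libraries fitted, trend or block, or left out libraries.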

Additional observations from a re-analysis of the deposited data

Results flagged for a closer look

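For 19 of the 30 genes that passed in log phase, the difference between hsh49::Q24P and WT was itself different in starvation. The test was limma's interaction term (starvation minus log phase, log2) at an adjusted p under 0.05, which 46.0% of all genes passed. That term subtracts the log phase difference by which the 30 genes were chosen, so it is not independent of that choice. A log phase difference that the choice made too large shifts the term the opposite way.

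Among the genes that were lower in log phase, 3 moved upward: RPS22B by 2.06 ± 0.2, CYC1 by 1.39 ± 0.139 and SAR1 by 0.40 ± 0.0766. The intron genes RPO26 and PRE3 were lower still in starvation, with terms of -0.48 and -0.30. The marker genes were also lower still, with terms of -6.10 for LEU2, -3.99 for SUP53 and -0.92 for URA3, beside the remnant of their RNA in the hsh49::Q24P log libraries.

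Among the genes that were higher in log phase, SAS5 and TIR2 gained 0.29 and 0.57. The others lost ground. HOP1, AFB1, HFM1 and APT1 had terms of -1.47, -1.16, -1.06 and -0.74, and their difference from WT passed at a lower level in starvation. IMT4, YPR170W-A, YLL053C, AQY2 and NDJ1 had terms of -1.50, -0.99, -0.93, -0.73 and -0.65; of these YPR170W-A was still higher than WT in starvation and the other 4 did not pass there.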

How the results depend on the processing

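The replicate block left 1 gene past the threshold and spike-in scaling 21, against 30. With spike-in scaling 3 genes passed lower, 0 of them with an intron, 13 were higher by at least 1, the medians of intron genes turned to 0.30 (outside the ribosome) and 0.315 (ribosomal protein genes), and SAR1, PRE3, SNC1 and NFS1 turned to 0.035, 0.062, 0.135 and 0.155; of the 11 intron genes 0 and 0 were lower than in nam8D and mud1D, and 7 differed between growth states. In the fit of the 12 log phase libraries 26 genes passed higher and 47 lower, 28 with an intron, and 8 of the 11 were lower than in nam8D. With a pseudocount of 5, 1 gene was higher by at least 1. A pseudocount of 0.1 left 10 genes past the threshold at a higher level, without HOP1, NDJ1 and HFM1. The median of intron genes outside the ribosome was -0.091 with the filter at 10 TPM (-0.121 relative to the median gene), -0.104 with median centring, -0.094 with trimmed mean scaling and -0.096 with quantile normalization.

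Leaving out 1 library at a time, which also leaves fewer samples, gave 8 to 9 genes higher, 9 to 16 lower, 5 to 10 of them with an intron, 3 to 5 of the 11 lower than in nam8D and 4 to 7 lower than in mud1D. Without hsh49::Q24P replicates 1 and 2 together, 2 passed higher (2 by at least 1) and 7 lower, 3 with an intron, with intron medians of -0.132 and -0.187 relative to the median gene and 1 and 1 of the 11 lower than in nam8D and mud1D.

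The replicate numbers are not known to pair the samples: same-numbered libraries deviated from their group means with r of -0.31, -0.20 and -0.25. With the replicate number as a block in the fit of the 6 libraries, 1 gene passed higher, SAS5 (limma adjusted p = 0.0104), which was also the 1 higher by at least 1; 0 passed lower, 0 of them with an intron, and 0 were lower by at least 1. At an unadjusted p under 0.05 that fit had 202 genes lower, 76 with an intron. The causes of these shifts were not tested. Depth is unknown.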
